A study of Mus musculus with 10 samples.

Results

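The Zfp genes are the mouse genes named for C2H2 zinc fingers, short protein loops in which a zinc ion is held by a pair of cysteines and a pair of histidines. A row of such fingers can read a stretch of DNA, and some single fingers bind RNA or other proteins instead. Many of these proteins carry a KRAB domain, which recruits the co-repressor TRIM28 and through it the histone methyltransferase SETDB1, so that retroelements and imprinted regions are kept silent. KRAB zinc finger genes arose by repeated duplication and lie in clusters of related copies.

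Of 390 protein-coding Zfp genes that the deposited gene list holds, 226 were taken as expressed and are described here. They were chosen by symbol (Zfp followed by a number, without Zfp36 and its 3 Zfp36l relatives) and by a measured value, a mean of at least 10 counts per 1e6 gene counts (CPM) over the 3 dCas9-empty and 2 mCherry libraries. The control level is therefore a description, and no test is made on it. The nearest genes below that floor were Zfp59 at 9.86 CPM, Zfp956 at 9.96 CPM and Zfp820 at 9.96 CPM, and the nearest above it were Zfp438 at 10.0 CPM, Zfp763 at 10.1 CPM and Zfp229 at 10.1 CPM. All 226 genes passed the filter on low counts in both comparisons, and none lacked counts in any library.

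The libraries came from Neuro2a, a mouse neuroblastoma line labelled wild-type, transfected with Lipofectamine and 1 of 4 plasmid sets and harvested after 72 h. A repressor built on dCas9, a Cas9 that no longer cuts DNA, and aimed at SCN9A (dCas9-SCN9A, 3 libraries) was compared with dCas9-empty (3 libraries). A zinc finger protein aimed at SCN9A (ZF-SCN9A, 2 libraries) was compared with mCherry, a fluorescent protein plasmid taken as its control (2 libraries). SCN9A encodes the sodium channel NaV1.7, and the question put to the Zfp genes was whether either repressor moved the cells' own zinc finger transcripts. The labels do not say that replicates were separate cultures, so p-values measure the spread between these libraries, which may be technical.

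Gene counts per library summed to 15.4 to 16.4 M (M, 1e6) in dCas9-SCN9A, 17.8 to 19.0 M in dCas9-empty, 4.41 to 6.30 M in ZF-SCN9A and 6.59 to 7.48 M in mCherry. The median Zfp gene had 385 to 411.5 counts in the dCas9-SCN9A libraries, 428 to 461 in dCas9-empty, 123 to 180 in ZF-SCN9A and 187.5 to 205.5 in mCherry, and the lowest count of any Zfp gene was 28, in ZF-SCN9A replicate 2. Scn9a stood at 30.9, 30.8 and 28.2 CPM with dCas9-SCN9A, against 75.1, 80.9 and 78.1 CPM with dCas9-empty. It stood at 18.8 and 15.6 CPM with ZF-SCN9A, against 62.2 and 56.2 CPM with mCherry. The summed level of the listed sympathoadrenal markers, which checks the cell line, was 3460 to 3806 CPM in dCas9-SCN9A, 3476 to 3624 CPM in dCas9-empty, 2406 to 2418 CPM in ZF-SCN9A and 2451 to 2456 CPM in mCherry. Markers of glia, of fibroblasts, and of endothelial and immune cells, summed list by list, came to between 8.28 and 38.4 CPM in any library, and their part in any result below was not tested.

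The 226 genes lay on 20 chromosomes and were unevenly spread. Chromosome 7 held 58 of them (25.7%, against 7.45% of the 9529 protein-coding genes at the same floor) and chromosome 17 held 25 (11.1%, against 4.74%). In all, 121 lay within 250 kb of another expressed Zfp gene, in 31 runs of 2 to 12 genes. The longest run, of 12 genes in chr7:29768552-30169750 (GRCm38), reached from Zfp84 to Zfp146. The next, of 11 genes in chr17:32765496-33631779, reached from Zfp871 to Zfp414.

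A KRAB A box was recognised by sequence profile in the annotated proteins of 114 of the 226 genes, and 112 had no match. Among Zfp genes below the floor 121 of 164 had a match (73.8%, against 50.4% of those above it). Of the genes with a KRAB match 72.8% had another expressed Zfp gene within 250 kb, against 33.9% of those without. Proteins with a KRAB match held a median of 11 fingers and the others 7.5, with a range over all 226 from 0 to 36. The 4 genes with no finger by the search pattern were Zfp330, Zfp365, Zfp503 and Zfp703. The pattern was C, 2 to 4 residues, C, 12 residues, H, 3 to 5 residues, H, so a finger with other spacing was not counted.

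To show what such a finger looks like in the genes whose level passed the test below, 1 coding stretch each is given for 2 genes that rose with ZF-SCN9A and 2 that fell, in GRCm38 and read on the gene's strand, with the codons of the zinc-binding cysteines and histidines in capitals. They were read from the GENCODE M21 transcripts and lie at chr14:65392079-65392150 (plus strand), chr7:5053096-5053158 (plus), chr8:109722923-109722985 (plus) and chr15:76854220-76854282 (minus), each within 1 coding exon.
Zfp395: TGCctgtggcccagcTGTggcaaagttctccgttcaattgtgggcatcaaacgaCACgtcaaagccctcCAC
Zfp580: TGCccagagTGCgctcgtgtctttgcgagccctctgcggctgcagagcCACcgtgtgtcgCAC
Zfp821: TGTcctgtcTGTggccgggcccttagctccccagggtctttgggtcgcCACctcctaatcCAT
Zfp251: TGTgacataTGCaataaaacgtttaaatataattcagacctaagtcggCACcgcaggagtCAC
The Zfp395 finger is the only one in its protein of 508 residues and is longer, at 72 bases, than the 63 bases of the other 3. Zfp580 and Zfp821 encode short proteins with 3 and 2 fingers, while Zfp251 encodes 11 fingers and has a KRAB match.

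The level of a gene in the control libraries was divided by its exon length so that genes could be ranked. On this scale the median was 5.43 CPM per kb. Genes with a KRAB match had a median of 4.34 CPM per kb and those without a median of 7.44 CPM per kb. Zfp365, whose product binds the neuronal scaffold protein DISC1, was highest at 42.4 CPM per kb. It was followed by the KRAB gene Zfp869 at 37.7, Zfp706 at 33.8, Zfp598, a ubiquitin ligase of collided ribosomes, at 33.8, and Zfp692 at 30.8 CPM per kb. Zfp869 was the only one of these 5 with a KRAB match. Only 16 of the 226 genes shared more than 20% of their 50-base words, on either strand, with another annotated gene. Among them were Zfp90 (77.1%) and the pair Zfp955a (51.8%) and Zfp955b (49.8%). A noncoding RNA on the other strand covers 79.5% of the exon bases of Zfp90, so its shared words need not come from a duplicate copy. For genes with duplicate copies the reads of the copies may not have been separable.

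**Figure D1:**
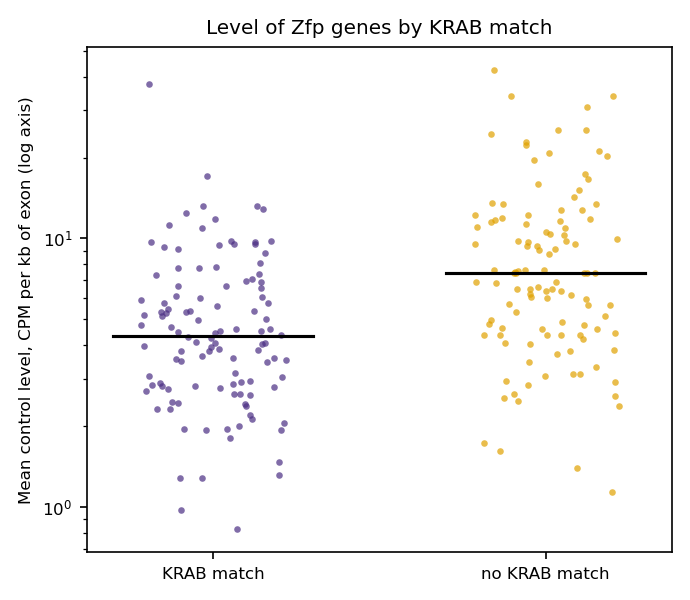
Mean control level of each Zfp gene in CPM per kb of exon, on a log axis, for the 114 genes with a KRAB match and the 112 without. Points are genes and lines are medians, at 4.34 and 7.44 CPM per kb. The groups overlap over most of their range, and Zfp869 is the KRAB gene that stands far above the rest.

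The first comparison was dCas9-SCN9A against dCas9-empty. No Zfp gene passed the test: 0 of 226 had an adjusted p under 0.05 by edgeR's quasi-likelihood method (adjusted after Benjamini and Hochberg), where 0.041% of all 14628 genes tested did. At an unadjusted p under 0.05, 4 were higher (1.77%, against 4.17% of all genes) and 10 were lower (4.42%, against 5.92%). DESeq2 called 0 of the 49 Zfp genes to which it gave an adjusted p (1.35% of all such genes), and limma-voom called 0 of 226 (0.0273% of all genes). The median log2 fold change over the 226 genes was -0.01, against 0.01 over all genes tested and -0.01 over protein-coding genes at the same floor. Changes ran from -0.33 to 0.34, so none reached 0.5 in size. All libraries of 1 group lay beyond those of the other in 23 Zfp genes (10.2%), against 15.6% of all genes. In bulk RNA, a lower level in each cell cannot be told apart from fewer cells that express the gene.

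The genes with the smallest p are described by their values, since none passed. Zfp715, a KRAB gene with 18 fingers, had 19.4, 17.01 and 16.3 CPM with dCas9-SCN9A, against 23.4, 21.3 and 21.6 CPM with dCas9-empty. All 3 dCas9-SCN9A libraries lay below all 3 of dCas9-empty, by a log2 fold change of -0.33 ± 0.09 (standard error of the fit, adjusted p = 0.232 in edgeR's test). Zfp57, which keeps imprinted regions methylated through TRIM28, had 58.6, 60.7 and 59.0 CPM with dCas9-SCN9A, against 43.6, 45.9 and 57.9 CPM with dCas9-empty. Here dCas9-empty replicate 3 lay close to the dCas9-SCN9A libraries while the other two controls were lower, and the log2 fold change was 0.27 ± 0.09 (adjusted p = 0.313 in edgeR's test). Without that control library the change of Zfp57 was 0.41 and passed (edgeR adjusted p = 0.0206).

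Zfp106, an RNA-binding protein needed for motor neuron upkeep in mice, had 227, 206 and 218 CPM with dCas9-SCN9A, against 250.01, 237 and 240.4 CPM with dCas9-empty. The groups did not overlap, and the log2 fold change was -0.16 ± 0.05 (edgeR adjusted p = 0.319). A noncoding RNA on the other strand covers 26.1% of the exon bases of Zfp106. Reads that overlap both genes would be listed as ambiguous and credited to neither, so that part of Zfp106 may be uncounted. Zfp609, a partner of the cohesin loader NIPBL in cortical neurons, had 93.7, 76.7 and 81.8 CPM with dCas9-SCN9A, against 96.3, 93.2 and 98.4 CPM with dCas9-empty. Its first dCas9-SCN9A library lay within the control range, and the change was -0.19 ± 0.07 (edgeR adjusted p = 0.344). Zfp236, with 30 fingers, was the next lowest by p, at -0.17 ± 0.06 (edgeR adjusted p = 0.382). On the higher side Zfp57 was followed by the KRAB genes Zfp101 at 0.34 ± 0.13, Zfp383 at 0.25 ± 0.10 and Zfp386 at 0.20 ± 0.09, with edgeR adjusted p-values of 0.393, 0.399 and 0.482. All 4 of the genes higher at an unadjusted p under 0.05 had a KRAB match, as did 4 of the 10 that were lower. Over the whole set 114 of 226 genes (50.4%) had a match. At the same cut with ZF-SCN9A, 3 of the 11 higher genes and 7 of the 23 lower genes had a match. The part of the KRAB match in these counts was not tested.

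The second comparison was ZF-SCN9A against mCherry, at less depth and with 2 libraries a group. Here 7 of 226 Zfp genes passed (3.10%), where 4.72% of all 12899 genes tested did. Zfp395, Zfp580 and Zfp292 rose (3 genes, 1.33%, against 1.95% of all genes), and Zfp821, Zfp251, Zfp131 and Zfp827 fell (4 genes, 1.77%, against 2.78%). Zfp251 was the only one of the 7 with a KRAB match, and 114 of the 226 genes have one. Genes with a KRAB match had a lower median control level, 19.6 CPM against 39.6 CPM in those without. The part of level in this count was not tested. At an unadjusted p under 0.05, 11 were higher (4.87%, against 7.78% of all genes) and 23 were lower (10.2%, against 8.40%). The libraries of the groups did not overlap in 103 genes (45.6%, against 45.6% of all genes).

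Zfp395, whose human counterpart is a hypoxia-induced transcription factor, had 65.5 and 52.0 CPM with ZF-SCN9A, against 32.5 and 42.6 CPM with mCherry (means 58.8 ± 9.51 and 37.5 ± 7.16, SD, n = 2 each). Both ZF-SCN9A libraries lay above both mCherry libraries, by a log2 fold change of 0.66 ± 0.12 (edgeR adjusted p = 2.6e-06). The gene (ENSMUSG00000034522) lies on the plus strand of chr14:65358389-65398930. In the other arm it was called in neither direction, at 69.0, 62.7 and 52.5 CPM with dCas9-SCN9A, against 66.0, 67.8 and 64.2 CPM with dCas9-empty.

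Zfp580 (ENSMUSG00000055633, plus strand of chr7:5051538-5053723) had 18.6 and 19.2 CPM with ZF-SCN9A, against 12.9 and 11.4 CPM with mCherry. The ZF-SCN9A libraries lay above both controls by 0.64 ± 0.19 on the log2 scale (edgeR adjusted p = 0.0218). It shares a run of 4 Zfp genes with Zfp628, Zfp579 and Zfp865, of which 2 had positive and 2 negative log2 fold changes with ZF-SCN9A. Zfp292 (ENSMUSG00000039967, minus strand of chr4:34803113-34882960), whose human counterpart is mutated in a neurodevelopmental disorder, encodes the longest protein of the set, 2698 residues with 14 fingers. It had 178 and 170.3 CPM with ZF-SCN9A, against 141 and 149 CPM with mCherry. The 2 groups were apart by 0.27 ± 0.08 on the log2 scale (edgeR adjusted p = 0.0141), the smallest change among the 7 genes. In the other arm it had 231, 232 and 179 CPM with dCas9-SCN9A, against 229, 256 and 241 CPM with dCas9-empty, where 2 libraries of dCas9-SCN9A lay in the control range and the last was lower.

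Zfp821 (ENSMUSG00000031728, plus strand of chr8:109705546-109724932) had 33.3 and 31.7 CPM with ZF-SCN9A, against 52.3 and 44.7 CPM with mCherry (means 32.5 ± 1.15 and 48.5 ± 5.32, SD, n = 2 each). It fell by 0.57 ± 0.13 on the log2 scale (edgeR adjusted p = 4.29e-04). With dCas9-SCN9A it had 43.9, 45.1 and 43.8 CPM, against 41.7, 44.4 and 44.5 CPM with dCas9-empty, so these groups overlapped. Zfp251 (ENSMUSG00000022526, minus strand of chr15:76851609-76871435), the KRAB gene, had 30.1 and 31.2 CPM with ZF-SCN9A, against 48.5 and 36.5 CPM with mCherry. It fell by 0.47 ± 0.13 (edgeR adjusted p = 0.0126), with the mCherry libraries much farther apart than the ZF-SCN9A libraries.

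Zfp131 (ENSMUSG00000094870, minus strand of chr13:119765187-119790889), a transcription factor with a BTB domain in front of its fingers, had 78.1 and 80.5 CPM with ZF-SCN9A, against 105 and 92.3 CPM with mCherry. It fell by 0.31 ± 0.09 on the log2 scale (edgeR adjusted p = 0.0171). Zfp827 (ENSMUSG00000071064, plus strand of chr8:79028437-79193766), whose human counterpart brings the NuRD complex to telomeres, had 8.99 and 7.69 CPM with ZF-SCN9A, against 13.1 and 14.1 CPM with mCherry. It fell by 0.69 ± 0.22 (edgeR adjusted p = 0.0438), and at 1.14 CPM per kb it was among the 3 least expressed of the set per length. It reached the floor of 10 CPM only through the mCherry libraries, the group it fell against, so its direction is not independent of how it was chosen. Among genes chosen by the dCas9-empty libraries alone, 6 of 221 were called, 3 higher and 3 lower, and Zfp827 was not among the genes. Its call held in 2 of 14 alternatives, DESeq2 size factors in edgeR and a filter at 1 CPM. It was lost, among others, with plain library sizes (edgeR adjusted p = 0.05), with no filter (0.0708), with all 10 libraries in the fit (0.0708), with the replicate block (0.0617) and with the length correction (0.0633). Counted from 1 strand column its log2 fold change was -0.14 (edgeR adjusted p = 0.916), and the cause was not tested. That column holds fewer reads, 2373632 gene counts in ZF-SCN9A replicate 2 where the unstranded column held 4412097.

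**Figure D2:**
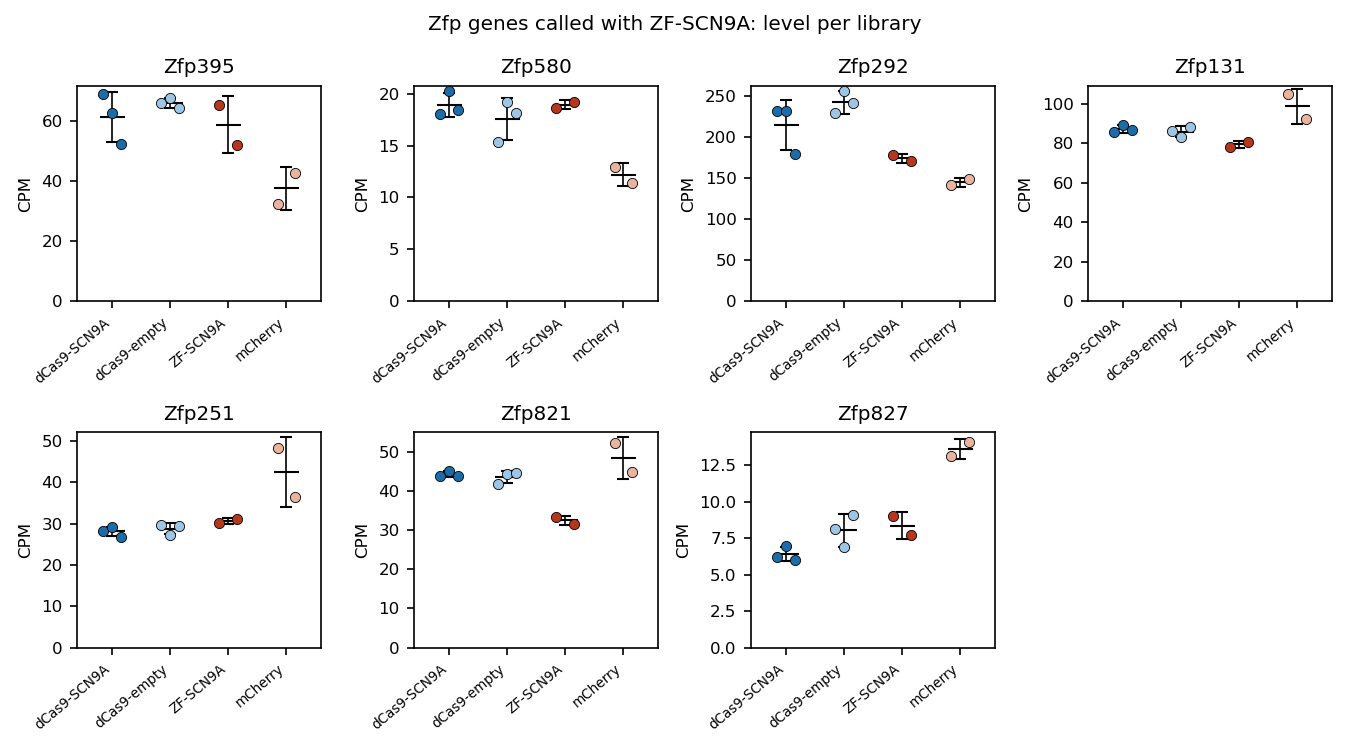
Level in CPM of the 7 Zfp genes that passed the test with ZF-SCN9A, in every library of the 4 groups. Points are libraries, and bars are the group mean and SD (n = 3, 3, 2 and 2). In each panel the 2 ZF-SCN9A libraries lie wholly above (Zfp395, Zfp580, Zfp292) or below (the other 4) the 2 mCherry libraries.

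These 7 calls were sensitive to the test and to single libraries. DESeq2 called 0 of the 226 genes (1.02% of all genes with an adjusted p), with 3 higher and 4 lower at its unadjusted p under 0.05, while limma-voom called 6 (2.65%, against 4.78% of all genes), all but Zfp827. Of the 7 genes, Zfp395 alone stayed called without mCherry replicate 1, Zfp821 alone with ZF-SCN9A replicate 1 left out, both of them with ZF-SCN9A replicate 2 left out, and 5 without mCherry replicate 2. Counted from 1 strand column, Zfp131, Zfp292, Zfp395 and Zfp821 stayed called. Further genes with a small p that did not pass were Zfp362, at 0.27 ± 0.10 (edgeR adjusted p = 0.128), and Zfp772, the only other Zfp gene past 0.5 in size and named for that after its value was seen, at -0.53 ± 0.24 (edgeR adjusted p = 0.237).

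The whole set lay slightly to the lower side with ZF-SCN9A. The median log2 fold change was -0.06 over the 226 genes, against 0.00 over all genes tested and -0.01 over protein-coding genes at the same floor, and 141 of the 226 values were negative (62.4%, against 51.9% of those protein-coding genes). The Zfp genes together took 0.920% and 0.921% of gene counts in ZF-SCN9A, against 0.956% and 0.930% in mCherry. They took 0.858%, 0.834% and 0.845% in dCas9-SCN9A, against 0.834%, 0.846% and 0.874% in dCas9-empty, where the groups overlapped. Both ZF-SCN9A shares lay below both mCherry shares, and the group means were closer to each other than the 2 mCherry libraries were. Without mCherry replicate 1 the median was -0.01, with 118 values negative and 108 positive, and without mCherry replicate 2 it was -0.04. By library, the median deviation of the Zfp genes from the mCherry mean (log2) was -0.06 and -0.06 in ZF-SCN9A, against 0.02 and -0.02 in mCherry, so both ZF-SCN9A libraries lay below both mCherry libraries.

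**Figure D3:**
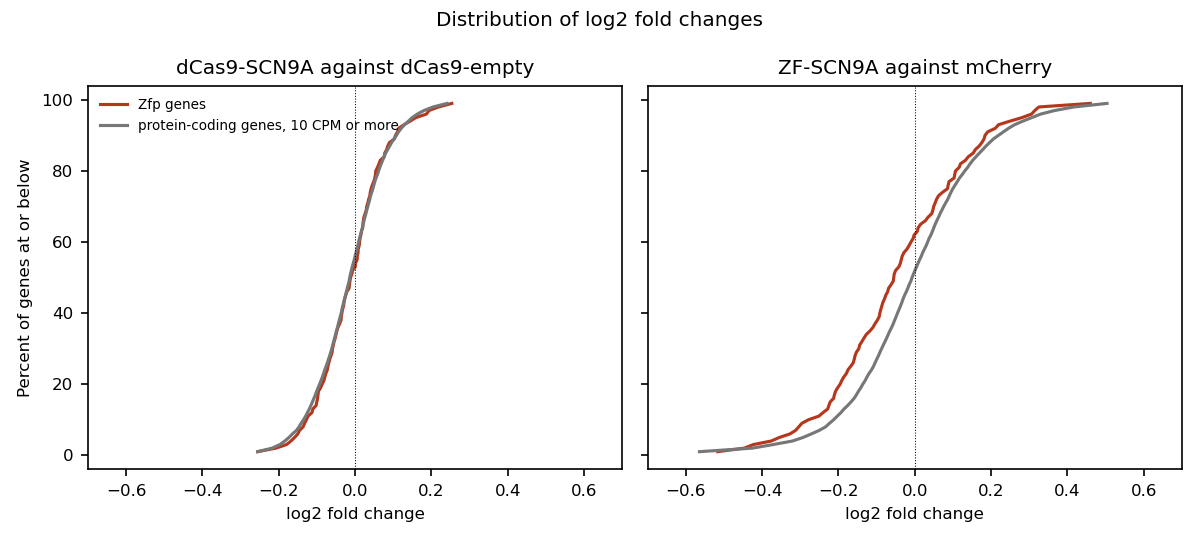
Percent of genes at or below each log2 fold change, for the 226 Zfp genes and for protein-coding genes with at least 10 CPM in controls, dCas9-SCN9A against dCas9-empty on the left and ZF-SCN9A against mCherry on the right. The curves run together on the left, while on the right the Zfp curve lies to the left, with medians of -0.06 and -0.01.

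By KRAB match the medians lay close together. With dCas9-SCN9A the median log2 fold change was -0.01 for genes with a KRAB match and -0.01 for those without, and with ZF-SCN9A it was -0.06 and -0.05. With ZF-SCN9A 0 KRAB genes rose and 1 fell, while 3 genes without a match rose and 3 fell, where 1.95% of all genes were called higher and 2.78% lower. The difference between the groups was not tested. Genes within 250 kb of another Zfp gene had a median of -0.06 with ZF-SCN9A and the others -0.05. Over the 226 genes 107 values were positive with dCas9-SCN9A and 141 (62.4%) negative with ZF-SCN9A. For the genes of chromosome 7 these counts were 30 of 58 and 36 of 58. On chromosome 17 the signs leaned opposite ways, with 17 of 25 genes positive with dCas9-SCN9A and 19 of 25 negative with ZF-SCN9A, and none called in either comparison. In the longer of its runs, of 11 genes from Zfp871 to Zfp414, 6 were positive and 5 negative with dCas9-SCN9A (median 0.00). With ZF-SCN9A 4 of these were positive and 7 negative (median -0.03). In the other run of chromosome 17, of 7 genes from Zfp948 to Zfp946, 6 were positive and 1 negative with dCas9-SCN9A (median 0.05). With ZF-SCN9A 1 of these was positive and 6 were negative (median -0.18).

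Exon length went with the dCas9 changes. Spearman's rho between exon length and log2 fold change was -0.26 over the 226 Zfp genes with dCas9-SCN9A, beside -0.35 over all genes tested, and -0.07 beside -0.12 with ZF-SCN9A. These correlations are over genes of the same libraries, which are not independent replicates, and are given as descriptions. The 76 longest Zfp genes had a median of -0.04 with dCas9-SCN9A and 50 negative values, against 0.01 and 34 negative values in the 75 shortest. The median exon length of the set was 5214 bases, close to the 4867 bases of protein-coding genes at the same floor. With a smooth length trend removed the median of the set with dCas9-SCN9A was 0.01 in place of -0.01. The part of length in the changes was not tested further.

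**Figure D4:**
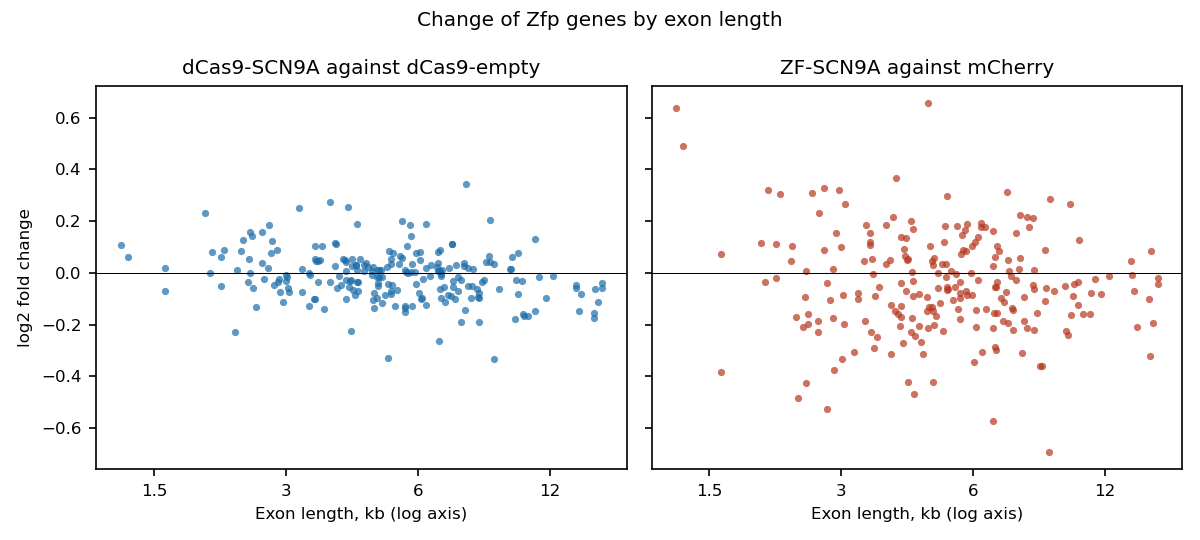
Log2 fold change of each of the 226 Zfp genes against its exon length in kb (log axis), dCas9-SCN9A against dCas9-empty on the left and ZF-SCN9A against mCherry on the right. On the left the points drift lower with length (rho -0.26), and on the right they scatter more widely with little drift (rho -0.07).

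By known role, 4 lists were described, which were drawn up with earlier results of these data known. The list of RNA, ribosome and protein quality control factors had 13 of its 14 genes in the set, and none was called in either comparison, with medians of -0.03 with dCas9-SCN9A and -0.04 with ZF-SCN9A. Zfp598, the ribosome collision sensor, had log2 fold changes of 0.11 ± 0.07 with dCas9-SCN9A and -0.12 ± 0.08 with ZF-SCN9A. The smallest p in this list with ZF-SCN9A was that of Zfp207, which chaperones the spindle checkpoint protein BUB3, at -0.21 ± 0.08 (edgeR adjusted p = 0.0899). Zfp830, which is needed for splicing and early mouse development, had 20.4 and 11.99 CPM with ZF-SCN9A, against 22.2 and 21.4 CPM with mCherry, so that 1 ZF-SCN9A library carried most of its change of -0.38 ± 0.17 (edgeR adjusted p = 0.206).

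Among chromatin and general transcription factors 17 of 19 listed genes were in the set. None was called with dCas9-SCN9A (median -0.03), and 2, Zfp131 and Zfp827, fell with ZF-SCN9A, where 2.78% of all genes were called lower. With ZF-SCN9A 14 of the 17 values were negative (82.4%, against 62.4% of the 226 genes and 51.9% of protein-coding genes at the floor), with a median of -0.14. Zfp827 is counted here although it reached the floor through mCherry. The lean was not particular to this list. Negative values with ZF-SCN9A numbered 11 of 13 (84.6%) among RNA, ribosome and protein quality control factors. For neuronal and developmental regulators they numbered 8 of 10, and for silencers of retroelements and imprinted genes 5 of 9. Neither Zfp407, at -0.32 ± 0.15 (edgeR adjusted p = 0.26), nor Zfp592, a member of a ZMYND8 complex with Zfp687 and Zfp532, at -0.22 ± 0.11, passed (edgeR adjusted p = 0.308). Zfp410 is known as a dedicated activator of Chd4, the NuRD helicase gene. Zfp410 had 38.3 and 39.1 CPM with ZF-SCN9A, against 45.4 and 41.1 CPM with mCherry, a log2 fold change of -0.16 ± 0.12 that did not pass (edgeR adjusted p = 0.586), while Chd4 fell by 0.23 ± 0.06 (edgeR adjusted p = 0.0103). With dCas9-SCN9A the 2 genes had opposite signs, at 0.13 ± 0.07 for Zfp410 and -0.06 ± 0.05 for Chd4, and neither passed (edgeR adjusted p = 0.573 and 0.758).

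Of neuronal and developmental regulators 10 of 15 listed genes were in the set. With dCas9-SCN9A all 10 log2 fold changes were negative, with a median of -0.12 and a range from -0.22 to -0.03, and none was called. Of the 226 genes 52.7% were negative in this comparison, and of protein-coding genes at the floor 56.1%. Zfp423, a partner of SMAD and EBF factors in cerebellar development, had 66.1, 64.3 and 63.4 CPM with dCas9-SCN9A, against 74.97, 69.5 and 67.0 CPM with dCas9-empty, which did not overlap (-0.13 ± 0.06, edgeR adjusted p = 0.50). Zfp503, a striatal regulator, had 15.0, 11.7 and 10.9 CPM with dCas9-SCN9A, against 15.3, 13.9 and 14.7 CPM with dCas9-empty, with 1 library inside the control range. With ZF-SCN9A 8 of 10 were negative and Zfp292 was the only one called, and it rose. Zfp24, a regulator of myelination, had 43.1 and 43.2 CPM with ZF-SCN9A, against 64.1 and 43.0 CPM with mCherry, so its value of -0.30 ± 0.12 came from mCherry replicate 1 alone and was 0.01 without it.

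Of 17 listed silencers of retroelements and imprinted genes only 9 were in the set, and none was called in either comparison. Their medians were 0.03 with dCas9-SCN9A and -0.01 with ZF-SCN9A. Zfp809, which silences murine leukaemia virus through its primer binding site, had 15.2 and 15.2 CPM with ZF-SCN9A, against 11.7 and 12.5 CPM with mCherry, a change of 0.32 ± 0.20 that did not pass (edgeR adjusted p = 0.449). Zfp445, which shares imprint upkeep with Zfp57, had 124 and 136 CPM with ZF-SCN9A, against 143 and 143 CPM with mCherry (-0.14 ± 0.08, edgeR adjusted p = 0.358). Of 16 genes of the KRAB co-repressor machinery, 0 were called with dCas9-SCN9A and Chd4 alone with ZF-SCN9A. Trim28 itself had log2 fold changes of 0.02 ± 0.05 with dCas9-SCN9A and 0.03 ± 0.06 with ZF-SCN9A. The 54 expressed genes of the related Zkscan, Zscan, Zbtb and Prdm families gave 0 calls with dCas9-SCN9A and 1 lower call with ZF-SCN9A, with medians of -0.04 and -0.01. Of all genes tested 0.041% were called with dCas9-SCN9A and 2.78% were called lower with ZF-SCN9A.

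Both changes were then set side by side, which the design allows since the arms share no library. Over the 226 genes Pearson's r between the 2 log2 fold changes was 0.03 and Spearman's rho -0.02, beside 0.08 and 0.09 over 9528 protein-coding genes at the floor, given as descriptions over genes. Both values were negative in 75 genes, both positive in 41 and opposite in 110. Zfp462, Zfp609 and Zfp827 had an unadjusted p under 0.05 in both comparisons and were lower in both. These 3 are 1.33% of the set. Of all 12833 genes tested in both comparisons 1.33% met the same criterion, so the share was that of the background. Zfp827 is among the 3 although it reached the floor only through mCherry, the group it fell against. No such floor was set for the 12833 genes. Zfp827 had 6.20, 6.93 and 6.01 CPM with dCas9-SCN9A, against 8.14, 6.87 and 9.11 CPM with dCas9-empty, overlapping in 1 library (-0.33 ± 0.14, edgeR adjusted p = 0.437). Zfp609 had 102 and 105 CPM with ZF-SCN9A, against 122 and 119 CPM with mCherry, which did not overlap (-0.22 ± 0.08, edgeR adjusted p = 0.106). Zfp462, a heterochromatin regulator with 33 fingers, had 114, 116 and 98.3 CPM with dCas9-SCN9A, against 119, 129 and 121 CPM with dCas9-empty. It had 119 and 128 CPM with ZF-SCN9A, against 138 and 138 CPM with mCherry, and its changes of -0.17 ± 0.06 and -0.16 ± 0.08 passed neither test (edgeR adjusted p = 0.393 and 0.289).

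**Figure D5:**
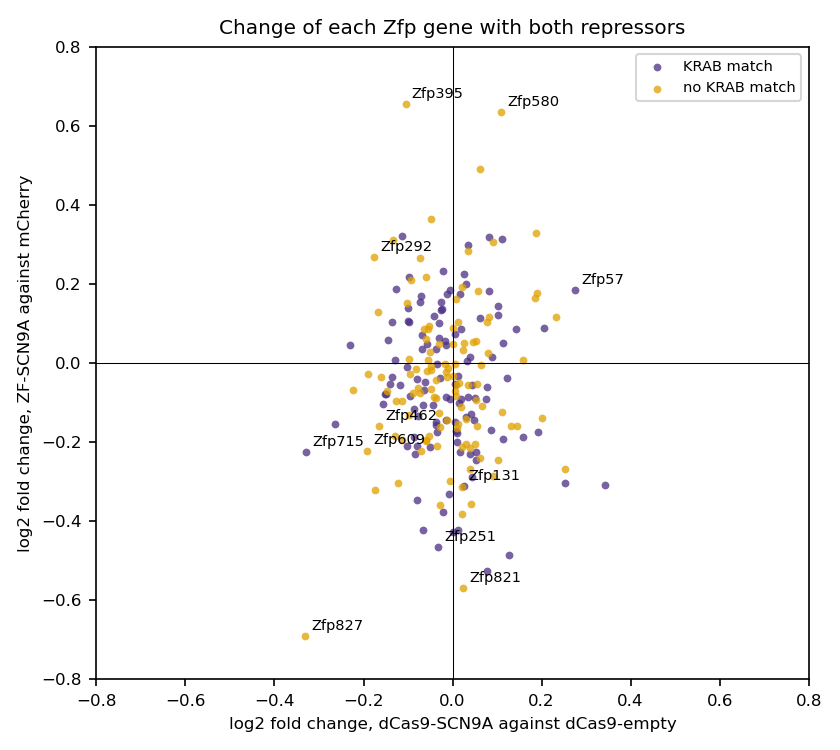
Log2 fold change of each of the 226 Zfp genes with dCas9-SCN9A against dCas9-empty (horizontal) and with ZF-SCN9A against mCherry (vertical), coloured by KRAB match. The cloud is taller than it is wide and has no slant (r = 0.03), and Zfp395, Zfp580, Zfp821 and Zfp827 lie farthest from the horizontal axis.

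The difference between the repressors was tested for each gene over all 10 libraries. The arms also differ in depth and in kind of control. The dCas9-empty libraries held 131446, 147989 and 155738 counts of the plasmid entry dCCas9. The mCherry libraries held 35 and 14 counts of the plasmid entry ZF, against 246775 and 178465 in ZF-SCN9A. A difference between the repressors cannot be told apart from these differences between the arms. Zfp821 was the only 1 of 226 Zfp genes to pass (0.442%, against 0.907% of all 15766 genes tested). Its change with dCas9-SCN9A minus that with ZF-SCN9A was 0.60 ± 0.13 on the log2 scale (edgeR adjusted p = 0.0157). With mCherry replicate 1 left out it was 0.48 and no longer called (edgeR adjusted p = 0.239). The same held when ZF-SCN9A replicate 1 was left out (0.64, edgeR adjusted p = 0.104) or ZF-SCN9A replicate 2 (0.57, edgeR adjusted p = 0.121). Zfp395 came next, with a difference of -0.76 ± 0.18 (edgeR adjusted p = 0.0644). It passed in 7 of 19 alternatives, with adjusted p-values from 1.69e-06 (edgeR, no filter) to 0.352 over all 19, and among them were DESeq2 (adjusted p = 0.00572) and the replicate block (edgeR adjusted p = 0.00399). The other genes called with ZF-SCN9A were not shown to differ between the repressors in the main fit. Their differences were -0.52 ± 0.20 for Zfp580, -0.44 ± 0.14 for Zfp292, 0.44 ± 0.16 for Zfp251, 0.34 ± 0.10 for Zfp131 and 0.37 ± 0.25 for Zfp827. Among the alternatives that kept all 10 libraries, Zfp292 passed with no filter and with the replicate block, and Zfp131 with 1 strand column.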

How the data were processed

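RNA sequencing was carried out on 10 libraries of Neuro2a cells. The deposited values are raw counts of reads per gene for each library, laid out as STAR writes them, and the authors did not normalise them. The submitters' processing notes name build GRCm38 and the tools STAR 2.7.3a, bcl2fastq 2.20 and DESeq2. The sources used here do not give the annotation release or the settings of the counting. The 2 stranded columns were about equal, so the unstranded column was used. In this layout a read that overlaps several genes is listed as ambiguous and credited to none. Where genes overlap on opposite strands, the shared stretch may therefore be uncounted. A long noncoding RNA covers 26.1% of the exon bases of Zfp106 and another covers 23.3% of those of Zfp507. Of 55401 gene identifiers, 55141 were found in GENCODE M21, which gave symbols, exon lengths and transcripts. The 4 entries that name no gene and 4 plasmid entries stayed out of library sizes and tests. Reads under the 4 entries that name no gene came together to 25.0% to 28.2% of listed reads a library. That share includes multimapping reads, at 6.62% to 8.98%, and ambiguous reads, at 4.18% to 4.44%.

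The dCas9 and ZF comparisons were fitted apart, and the difference between repressors over all 10 libraries, by the quasi-likelihood test of edgeR 4.0.16 (R 4.3.3 with limma 3.58.1) with TMM scaling, low counts removed by filterByExpr with the groups given, robust fits and two-sided p-values. P-values were Benjamini-Hochberg adjusted over all genes tested, and an adjusted p under 0.05 was a call. The ± after a fold change is the standard error of the fit, taken as the size of the change over the square root of the quasi-likelihood F statistic. Printed CPM use TMM-adjusted library sizes, while the floor of 10 CPM, control levels and Scn9a use plain sums of gene counts. Fitted spread was a biological coefficient of variation of 6.07% for dCas9 and 5.12% for ZF. In the ZF fit 88.0% of genes rested wholly on spread shared across genes. Chi-square tests found every replicate pair to differ beyond sampling noise. Steps were tested on simulated counts.

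KRAB A boxes were found with a profile built from 161 windows of 41 residues in proteins translated from the transcripts, at an E-value under 1e-05, and finger counts are those of the longest complete coding sequence. The members and gene lists were chosen with earlier results of these data known. Genes are named where called, where among the 4 with the smallest p a direction and comparison, for the 5 highest control levels per kb, next to the floor, and from the role lists. Alternatives were DESeq2 1.42.0, limma-voom, other scaling, filters, the replicate number as a term, a length correction, 1 strand column, other floors and symbol rules, and leaving out each library. The level of 1 listed marker gene is not reported here.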

Additional observations from a re-analysis of the deposited data

Results flagged for a closer look

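Zfp821 was marked because its change differed between the repressors in the test of the difference itself, by 0.60 ± 0.13 on the log2 scale (edgeR adjusted p = 0.0157). An effect of the repressor cannot be told apart here from the unlike controls and depth of the arms. The gene fell with ZF-SCN9A in 2 of 2 libraries, while its libraries overlapped between dCas9-SCN9A and dCas9-empty. The difference ranged from 0.48 to 0.72 over 19 alternatives and passed in 16 of them. No group held enough samples for a test of single outlying libraries.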

How the results depend on the processing

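With dCas9-SCN9A the 0 calls became 1 with no filter on low counts (Zfp57), 2 with the replicate block (Zfp57 and Zfp715) and 0 to 1 with each library left out in turn. With ZF-SCN9A the 7 calls became 0 in DESeq2, 4 with no filter, 4 with 1 strand column and 2 to 8 with each library left out. For the difference between repressors the 1 call became 2 in DESeq2, 3 with no filter, 3 with the replicate block, 2 with 1 strand column and 0 to 3 with each library left out. The median of the set with dCas9-SCN9A was 0.00531 with plain library sizes, 0.015 with the length correction, and -0.015 to 0.00158 with each library left out. The median with ZF-SCN9A was -0.075 with no filter and -0.0632 to -0.00679 with each library left out. In 2 cases the sign turned. Zfp24 with ZF-SCN9A was 0.00656 without mCherry replicate 1 and -0.571 without mCherry replicate 2, and Zfp507 was -0.0338 with 1 strand column. Of 782 alternative values for named genes, 722 kept their direction and side of the threshold, 41 lost a call and 17 gained one. The 41 lost calls all fell on the 7 genes called with ZF-SCN9A or on Zfp821 in the difference between repressors. Most of the 782 values belong to results without a call to lose. A value to which DESeq2 gave no adjusted p was counted as keeping its side. The cause was not tested in any case.

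The labels state no pairing, so the replicate numbers were not taken as pairs in the main fit, and the replicate block was run as an alternative. Same-numbered libraries of both groups had deviations correlated at 0.256, 0.197 and 0.0424 in the dCas9 arm and 0.0683 in the ZF arm. With 2 libraries a group the deviations mirror each other, so the ZF arm gives a single value. These values do not settle whether the numbers are pairs. Of the 6 dCas9 libraries, each but dCas9-empty replicate 3 correlated best with its own number. With 2 libraries a group the ZF arm had 2 residual degrees of freedom, and a lone library left in a group was assumed to vary like the others.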
